A study of Mus musculus with 3 samples.

Results

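RBFOX2, an RNA-binding protein that regulates splicing, was crosslinked to RNA in primary mouse hepatocytes, and its contacts within the genes of small structural RNAs were examined. A contact is a cluster, a run of neighbouring positions at which cDNAs started, and a count is 1 such cDNA start. A cluster was taken when its midpoint lay, on the same strand, inside a gene that the GENCODE M21 annotation of GRCm38 types as snRNA, snoRNA, scaRNA, misc_RNA, ribozyme or miRNA. Mitochondrial genes and the ribosomal RNA locus on chromosome 17 were left out, which removed 0 clusters. The rule found 407 of 87021 clusters (0.468%, Wilson 95% interval 0.425 to 0.515%), with 72781 of the 2850863 summed counts (2.55%). They lay in 360 of 5734 annotated genes of these types.

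The 3 eiCLIP libraries formed a single group, hepatocytes from livers of C57BL6/J mice irradiated with UV at 150 mJ/cm2 and precipitated with an antibody to RBFOX2 (RBM9, Bethyl Laboratories). The labels give 3 livers and 3 pellets for each library, whereas the methods describe 3 cultures from 2 mice each. By the series' design text the mice received a control diet and the plated cells rested overnight before irradiation, so these are cultured cells and not intact liver. The libraries were summed before clusters were called, so no value below has a spread between libraries, no comparison was tested, and intervals cover counting error only. Of 9 hepatocyte markers, 8 carried clusters (197 clusters and 13194 counts in all), whereas of the cholangiocyte markers 0 of 5 did, and of the endothelial, Kupffer, leukocyte and stellate markers 1 of 5 each.

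Small structural RNAs work as the core of ribonucleoprotein particles. The U1, U2, U4, U5 and U6 snRNAs build the spliceosome that removes introns, and U11 and U12 serve the minor spliceosome. Box C/D and H/ACA snoRNAs guide methylation and pseudouridylation of ribosomal RNA in the nucleolus, and scaRNAs guide the same changes on snRNAs in Cajal bodies. In mammals most snoRNAs are cut from introns of host genes, whereas snRNAs, 7SK and 7SL are transcribed from promoters of their own and have many near-identical copies in the genome. RBFOX proteins bind the RNA motif GCAUG, written GCATG here as in the genome sequence.

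The sequences that carry the results are given first, as DNA, from GENCODE M21 transcripts on GRCm38.

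U2 is shown because its genes held the largest count of any family. Capitals mark, in Rnu2-10 (chr11:101658238-101658428, plus strand), positions 58 to 78, each spanned by at least 11 of the 14 U2 clusters after alignment, and in Gm22973 (chr12:59040335-59040525, plus strand) the part under its own cluster.
Rnu2-10: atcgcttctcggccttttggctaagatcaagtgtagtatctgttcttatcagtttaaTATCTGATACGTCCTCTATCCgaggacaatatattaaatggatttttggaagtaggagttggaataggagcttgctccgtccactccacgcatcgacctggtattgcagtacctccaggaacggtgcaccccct
Gm22973: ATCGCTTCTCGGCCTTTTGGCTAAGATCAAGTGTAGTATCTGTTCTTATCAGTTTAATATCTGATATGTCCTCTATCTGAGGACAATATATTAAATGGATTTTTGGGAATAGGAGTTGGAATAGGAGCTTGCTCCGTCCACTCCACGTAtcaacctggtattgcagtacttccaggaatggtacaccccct

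The H/ACA snoRNA Snora81 (chr16:23110756-23110933, plus strand) had the largest count of a single gene, and the minor spliceosomal RNAs Rnu12 (chr15:83149644-83149794, plus strand) and Rnu11 (chr4:132270080-132270213, minus strand) were the highest of their class. Capitals mark the part under the cluster.
Snora81: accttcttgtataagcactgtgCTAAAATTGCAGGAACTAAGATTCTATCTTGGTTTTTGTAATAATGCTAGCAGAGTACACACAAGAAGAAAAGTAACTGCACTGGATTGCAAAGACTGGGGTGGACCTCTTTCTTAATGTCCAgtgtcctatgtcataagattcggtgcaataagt
Rnu12: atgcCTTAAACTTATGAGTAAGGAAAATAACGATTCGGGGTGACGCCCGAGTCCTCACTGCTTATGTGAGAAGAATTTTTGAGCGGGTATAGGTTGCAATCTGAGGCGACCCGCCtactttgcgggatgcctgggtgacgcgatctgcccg
Rnu11: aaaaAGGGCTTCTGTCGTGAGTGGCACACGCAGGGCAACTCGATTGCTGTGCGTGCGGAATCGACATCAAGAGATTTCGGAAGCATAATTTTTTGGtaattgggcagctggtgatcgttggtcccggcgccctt

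The RNAs outside U6 with GCATG within 50 nt of a cluster and the highest counts are shown with GCATG, or TGCATG where the T precedes it, in capitals. They are Snord118 (chr11:69073427-69073561, plus strand) whole, positions 78 to 163 of Gm22009 (chr3:69085285-69085370, minus strand), positions 267 to 331 of Rn7sk (chr9:78175303-78175367, minus strand) and positions 100 to 205 of Gm24119 (chr10:91118332-91118437, minus strand).
Snord118: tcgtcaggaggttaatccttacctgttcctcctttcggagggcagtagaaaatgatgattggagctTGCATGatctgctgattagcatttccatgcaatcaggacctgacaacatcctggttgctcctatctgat
Gm22009: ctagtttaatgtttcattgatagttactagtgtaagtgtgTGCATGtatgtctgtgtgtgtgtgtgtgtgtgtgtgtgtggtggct
Rn7sk: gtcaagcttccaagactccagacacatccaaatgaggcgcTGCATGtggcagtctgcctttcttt
Gm24119: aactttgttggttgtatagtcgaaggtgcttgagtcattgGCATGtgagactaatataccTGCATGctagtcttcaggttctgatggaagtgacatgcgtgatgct

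Clusters in small RNA genes were taller and wider than the other clusters of the list. Their median count was 36 (quartiles 18 and 82, range 10 to 4708), against 17 (quartiles 13 and 25) for the 86614 others, and their median width was 30 nt against 18 nt. Of the 407, 184 (45.2%, 40.4 to 50.1%) reached the top 10% of counts, at or above 39, against 10.1% of the others. Counts were concentrated, since the 10 genes with the highest counts held 48.7% of the total. A single cluster was found in 334 genes, and 6 genes had 3 or more.

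**Figure D1:**
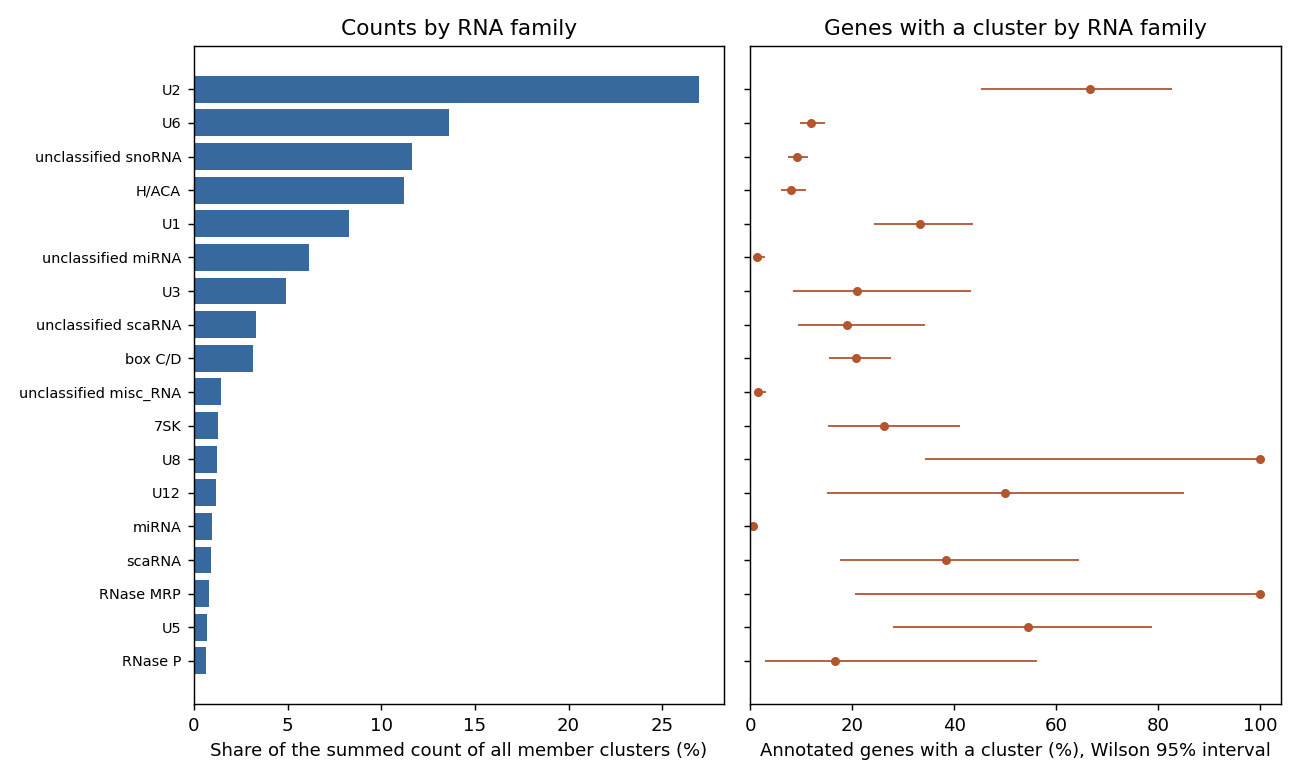
Left, the share of the summed count of small RNA clusters (%) for the 18 families with the highest counts. Right, the share of annotated genes of each family with a cluster (%), with Wilson 95% intervals. U2 held 27.0% of the count, and 14 of its 21 genes had a cluster.

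By annotated type, snoRNA genes held 172 clusters in 159 genes (23598 counts) and snRNA genes 148 clusters in 147 genes (37704 counts). scaRNA genes held 30 clusters in 13 genes (3355 counts), misc_RNA genes 29 in 26 (2404 counts), ribozyme genes 15 in 2 (1049 counts) and miRNA genes 13 in 13 (4671 counts). Most genes carry only a number as a name, so each was also placed in a family by its symbol or, failing that, by similarity to a named RNA. In 18 clusters the midpoint lay in 2 annotated small RNA genes at once.

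The RNAs of the major spliceosome, U1, U2, U5 and U6, led the list. They held 131 clusters, which is 32.2% of clusters (27.8 to 36.9%) but 49.6% of the count. U2, which pairs with the branch site, had a cluster in 14 of 21 genes and 19621 counts (27.0%), and U6, part of the catalytic core, in 81 of 676 genes and 9914 counts (13.6%). U1, which recognises the 5′ splice site, had 30 clusters in 29 of 87 genes (6038 counts), and U5, which aligns the exons, 6 in 6 of 11 genes (497 counts). U4, U4atac and U6atac could not be singled out because no gene in the annotation used carries those names, and any relatives fall among the 13 genes of unclassified snRNA (359 counts), led by Gm25541 (75), Gm24407 (66) and Gm25630 (46).

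Few spliceosomal genes carried most of these counts. In U2 they were Gm22973 (4649 counts), Gm25939 (3432), Gm25360 (2740), Gm24497 (2180), Gm26316 (2168), Gm23472 (1541), Gm23971 (857) and Gm25202 (809). In U6, Gm23815, 98.1% identical to its named relative, alone had 4406 of the 9914 counts, and the median U6 cluster had 38. In U1, Gm22513 had 2910 of the 6038.

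The copies with clusters were mostly close to the canonical RNA. Among U6 genes under 80% identical to Rnu6, 2 of 159 (1.26%) had a cluster. The share was 3.90% between 80 and 90%, 12% between 90 and 95%, 24.0% between 95 and 98%, and 33.9% (38 of 112, 25.8 to 43.1%) at 98% or more, and that last bin held 7931 of the U6 counts. For U1 the share was 17.2% under 80% identity and 63.6% (7 of 11) at 98% or more.

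**Figure D2:**
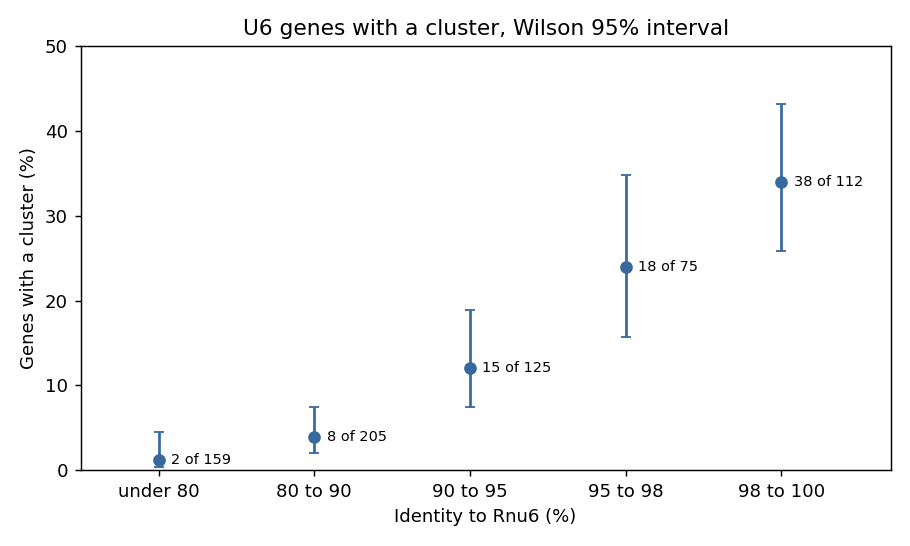
Share of annotated U6 genes with a cluster (%) by identity to Rnu6 (%), with Wilson 95% intervals and the numbers of genes. The share is 1.26% below 80% identity and 33.9% at 98% or more.

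Only uniquely mapped reads were kept by the authors, which bears on such copies. Rnu6 shares its sequence with other genes (43 identical copies in all) and Rnu2-10 is 1 of 4, and neither had a cluster. Rnu1a1, with 7 identical copies, had 98 counts, and Rnu1b1, Rnu1b2 and Rnu1b6 had none. Among U6 genes whose sequence is shared with another gene, 19 of 76 (25%, 16.6 to 35.8%) had a cluster, and among those found once, 62 of 600 (10.3%, 8.14 to 13%). The reads behind the counts on shared sequences were not analysed here, so these counts were not read as levels of the RNA or as contacts of a particular copy.

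The minor spliceosomal RNAs also carried clusters. Rnu12 had 854 counts and Rnu11 had 347, each in 1 cluster, and a U12 relative, Gm24525, had 21. Rnu7, the RNA that guides histone mRNA 3′ ends, had 53.

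Within the snRNAs, clusters covered broad stretches. The 14 U2 clusters started at a median position of 31 and ended at 132.5 of Rnu2-10, and 8 of them spanned GTAGTA at positions 33 to 38, which pairs with the branch site. In U6, 64 of 81 clusters covered positions 29 to 34. In U1, each position from 40 to 127 was covered by 14 to 19 of 30 clusters, with 19 at position 125, 18 at 84 and 17 at 41. Single positions of ACTTACC at 3 to 9, which pairs with the 5′ splice site, were covered by 7 to 9 of 30, and 6 clusters spanned all of it. In U5, 5 of 6 clusters covered positions 69 to 87 of Rnu5g. Positions 41 and 42, within GCCTTTT in loop 1 at 37 to 43, were covered by 4 clusters, and 2 spanned all of that sequence. Each of these landmarks occurs once in the canonical RNA. Copies of a family share their sequence, so these clusters are not independent observations.

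**Figure D3:**
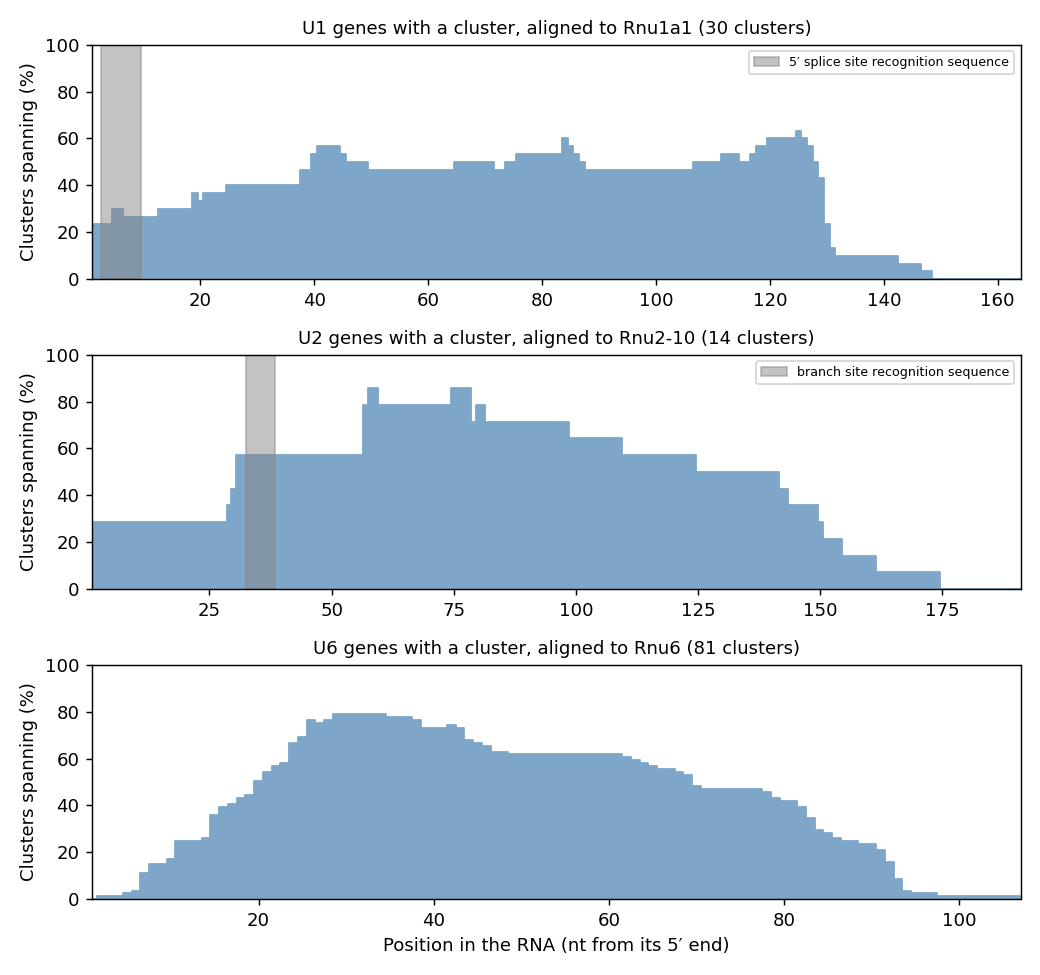
Share of clusters (%) that span each position of U1, U2 and U6 (nt from the 5′ end) after alignment of each copy to Rnu1a1, Rnu2-10 and Rnu6. Shaded bands mark the sequences of U1 and U2 that pair with the 5′ splice site and the branch site. U6 clusters were densest at positions 29 to 34, covered by 64 of 81.

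Among the snoRNAs, H/ACA genes held 46 clusters in 39 of 481 genes (8147 counts) and box C/D genes 37 in 35 of 168 (2290 counts), apart from U3 and U8. Snora81, in an intron of Eif4a2, which encodes a translation initiation factor, had 4708 of the H/ACA counts in 1 cluster over positions 23 to 145 of its 178 nt. That cluster also lay in an annotated miRNA gene, Gm49346. The next H/ACA RNAs were far lower, namely Snora62 (447 counts), Snora23 (437), Snora73a (254), Snora73b (201), Gm25133 (195), Snora75 (165), Snora68 (142), Snora30 (132) and Gm26448 (128).

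The box C/D RNAs with the highest counts were those that act in ribosomal RNA cleavage. U3, needed to process the small subunit RNA, had 3563 counts, with 2228 on Rnu3a, 1099 on Rnu3b1 and 225 on Rnu3b3, while Rnu3b2 and Rnu3b4 had none. Rnu3b1 is 1 of 4 identical copies. U8, encoded by Snord118 and needed for the large subunit RNA, had 872. Lower counts were found on Snord17 (299), Snord22 (277, in a transcript of Snhg1), Snord14d (176), Snord83b (161), Snord49b (149), Gm24494 (119), Snord14c (68) and Snord13 (30, known as U13), and Snord14e had none.

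Another 77 snoRNA genes matched no named RNA (80 clusters, 8463 counts). Of these, 40 had ACA near the 3′ end, 15 had box C and D letters, 2 had both and 20 had neither. Gm23262 had 3845 of the counts and overlapped an exon of Eif4g2, a translation factor, so its cluster cannot be assigned to the snoRNA alone. The others were lower, with Gm24119 (intron of Slc25a3) at 544, Gm24044 (Rpsa) at 319, Gm23547 (overlapping an exon of Phb2) at 302, Gm24451 (Nop56) at 199 and Gm26109 (Hspa9), Gm24336 (Cwf19l1), Gm23639 (Epb41l4aos), Gm24507 (Tmem167) and Gm22988 (Eif4a1) at 539, 173, 160, 105 and 101.

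The scaRNAs were long and often held several clusters. Gm22009, 343 nt in an intron of the nuclear import gene Kpna4, had 7 clusters and 1731 counts, the highest being 548 at positions 159 to 181 and 482 at its 5′ end. Gm25395 (492 counts in 5 clusters) and Scarna6 (200 in 3) lay in introns of Atg16l1, an autophagy gene. Gm22442 in Chd3 had 79 counts in 3 clusters. Scarna10 had 202, Scarna17 had 113, Scarna2 had 95, Scarna13 had 76 and Gm23119 had 54, and the other 3 unnamed scaRNA genes had 12 to 17.

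The catalytic RNAs also held several clusters each. Rmrp, the RNA of RNase MRP, had 9 clusters and 576 counts, the tallest 232 at positions 67 to 79, and Rpph1, the RNA of RNase P, had 6 clusters and 473 counts, of which 374 lay from the 5′ end to position 53. Rmrp is annotated a second time as a lincRNA, which is the exon its clusters overlapped. In both, clusters were spread over most of the length.

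**Figure D4:**
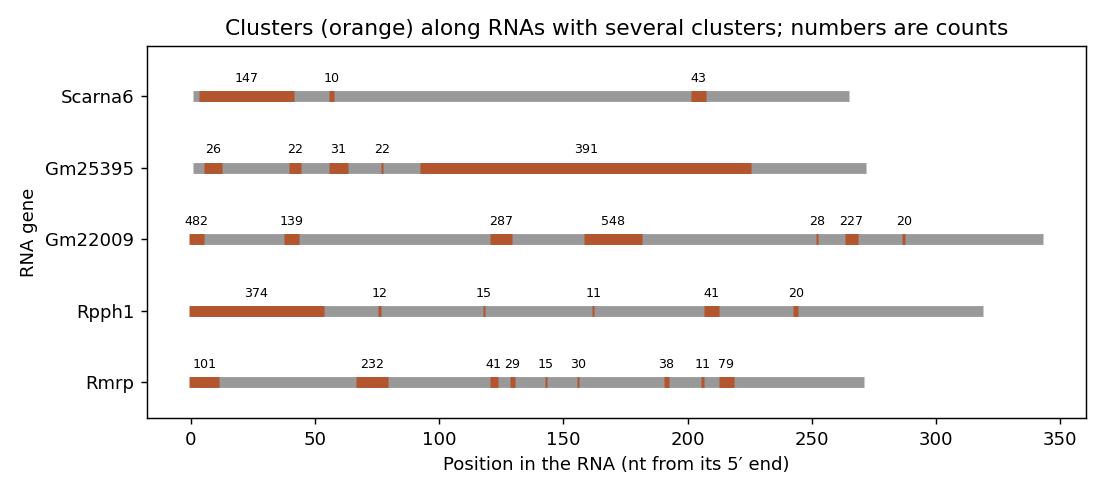
Clusters (orange) along 5 RNAs with 3 or more clusters, with position in nt from the 5′ end and the count of each cluster above it. Rmrp had 9 clusters and Gm22009 had 7, and in Rpph1 the first cluster held 374 of 473 counts.

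7SK, which holds the elongation factor P-TEFb inactive, had clusters in 11 of 42 genes with 941 counts, 497 of them on Rn7sk, 145 on Gm26035, 119 on Gm24146 and 14 to 46 on the next 7. Clusters were densest at positions 106 to 109 (9 of 11), whereas the TGCATG of Rn7sk at 307 to 312 was spanned by 1. 7SL, the RNA of the signal recognition particle, had only 172 counts in 4 of 21 genes, with 58 on Rn7s1, 45 on Gm26461, 37 on Rn7s6 and 32 on Rn7s2. The Y RNAs Rny3 and Rny1 had 91 and 82 counts, vault RNA Vaultrc5 had 34 and the telomerase RNA Terc had 17.

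Genes typed miRNA were mostly of low count apart from Gm23935. Gm23935 (chr16:11144125-11144181, plus strand) had 4313 of the 4467 counts of the 6 unnamed miRNA genes, and its cluster ran from 19 nt before the 57-nt gene to past its end. It is 1 of 3 identical copies, of which Gm24245 had 75 counts, and at Gm24270 a cluster of 749 counts had its midpoint 1 nt outside the gene. No mature miRNA was matched to Gm23935. Whether its counts come from a miRNA or from another RNA, such as ribosomal RNA, was not tested. Ribosomal RNA was left out only by its chromosome 17 locus, not by sequence. Its sequence, all of it under the cluster, is:
Gm23935: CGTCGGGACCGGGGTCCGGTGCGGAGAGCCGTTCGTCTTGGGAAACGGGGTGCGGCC

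Gm26083, typed scaRNA, had 447 counts over miR-6516, and Mir1839 (27 counts, also scaRNA) and Mir5117 (30, snoRNA) are likewise RNAs that hold a miRNA. Gm26083 and Mir1839 both overlap an exon of another gene (Snhg20 and 2900076A07Rik). The 22 nt of miR-6516-5p lay wholly under the Gm26083 cluster, which covered 90.7% of that RNA. miR-1839-5p also lay wholly under its cluster, which covered 53.5% of Mir1839. By contrast, the cluster in Mir18, at positions 83 to 85 with 11 counts, lay outside both mature arms. The clusters in Mir6240, Mir6913 and Mir8093 also lay outside the mature sequences matched to them, and that in Mir3057 covered 5 nt of each arm. Mature sequences from RefSeq (GRCm38.p6) are shown for miR-6516-5p, miR-1839-5p and miR-18a-5p, with the seed (bases 2 to 8) in capitals. No seed was shared among these. The other named miRNA genes had 11 to 80 counts, with Mir6240 at 80, Gm26377 at 39, Mir3057 at 22, Mir6913 at 22, Mir8093 at 19 and Gm22133 at 11.
miR-6516-5p: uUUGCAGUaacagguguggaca
miR-1839-5p: aAGGUAGAuagaacaggucuug
miR-18a-5p: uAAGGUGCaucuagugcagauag

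Over all RNAs, most cluster midpoints lay between 20 and 60% of the length, and fewest lay near the 3′ end. A cluster that covers most of its RNA has its midpoint near the middle. Gm23815 (4406 counts) covered 84.1% of its RNA and Gm25360 (2740 counts) covered 91.1%, both with the midpoint at 45.3%. The part of such broad coverage in the shares below was not tested. The midpoint lay in the first 50% of the RNA in 68.1% (63.4 to 72.4%). In steps of 20% of the length, 59, 135, 135, 57 and 21 clusters were found from the 5′ to the 3′ end, and the step from 40 to 60% held 55.3% of the count. In 342 cases (84.0%) the cluster lay wholly inside the RNA. It started within 5 nt of the 5′ end in 62 (15.2%), whereas only 8 ended within 5 nt of the 3′ end. The reads kept were at least 18 nt long, and the part of this length filter in the difference between the ends was not tested. Past the 5′ end reached 52 clusters and past the 3′ end 17.

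**Figure D5:**
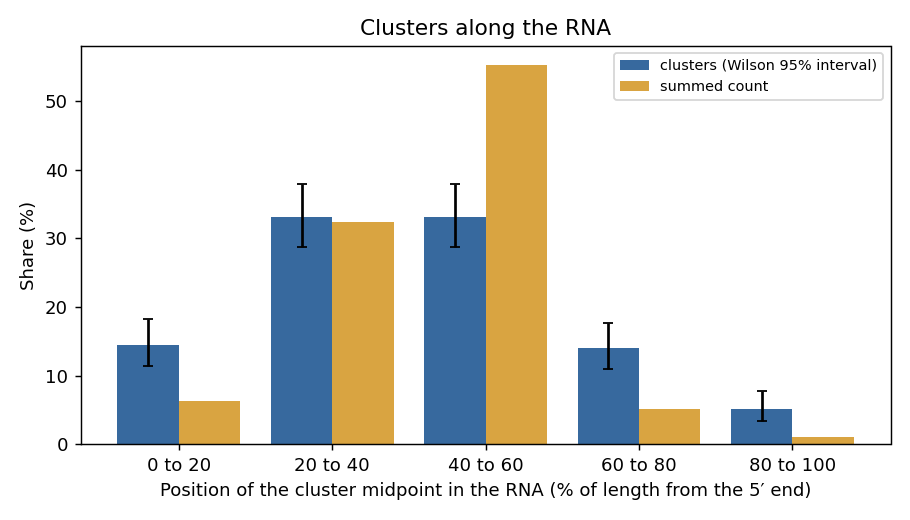
Share of the clusters (blue, Wilson 95% intervals) and of their summed count (yellow) by position of the midpoint along the RNA, in steps of 20% of its length (% from the 5′ end). The steps from 20 to 40% and from 40 to 60% each held 33.2% of clusters, and the last step held 5.16%. Clusters that cover most of their RNA have midpoints near the middle.

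At the ends of genes the call depends on a few bases. Just inside were Gm27694 (824 counts), Snora57 (105) and Snord42b (32), with midpoints on the first base, and then Gm22009 (482) and Gm22303 (30). Just outside, at 1 or 2 nt, were clusters at Gm23043 (15), Gm24270 (749), Gm24546 (12), Gm25053 (16) and Gm22056 (29). Within 50 nt outside a gene lay 122 clusters, of which 34 overlapped it.

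With U6 included, GCATG was found in a larger share of these clusters than of the others, and most matches within the clusters themselves were in U6. Shares without U6 were taken only with 50 nt on each side, so the differences at narrower windows cannot be read as a trait of the other families. The intervals for GCATG overlapped with 50 nt on each side but not with 20 nt. With 50 nt on each side, 34 of the 146 members with sequence held it (23.3%, 17.2 to 30.8%), against 20.03% (19.5 to 20.6%) of 19737 other clusters with sequence, and 144 of the 146 were outside U6 (22.9%). TGCATG was in 14.4% (9.60 to 20.99%) and 10.2% (9.79 to 10.6%) of the same windows. Its shares were close with 20 nt on each side (6.39% and 6.30%) and within the cluster itself (2.71% and 2.77%). With 20 nt on each side GCATG was in 46 of 266 (17.3%, 13.2 to 22.3%) and 12.3% (11.9 to 12.7%). Within the cluster itself the shares were 56 of 369 (15.2%, 11.9 to 19.2%) and 5.67%, and 45 of the 56 were U6 clusters. The others of the list were also narrower, as given above. Within the RNAs themselves, 116 of 360 genes with a cluster held GCATG, but 76 of these were U6. Without U6 the share was 14.3% (10.7 to 18.9%) among 279 genes with a cluster and 15.2% (14.2 to 16.2%) among 4772 without. TGCATG was present in 8.24% and 7.08% of them, and CATGC in 11.1% and 15.1%. Of the U1 genes, 0 of 29 with a cluster and 7 of 58 without held GCATG, and of the U2 genes, 0 of 14 and 1 of 7. Box C/D genes held it in 5 of 35 with a cluster and 2 of 133 without. However, 54 box C/D genes share their sequence with another gene, and 0 of these had a cluster. The shares were close in H/ACA genes (6 of 39 with a cluster and 55 of 442 without) and 7SK genes (3 of 11 and 9 of 31). In unclassified snRNA genes the order was reversed (2 of 13 and 150 of 525).

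U6 holds GCATG as part of its conserved sequence. It was present in 541 of 676 U6 genes, 76 of which had a cluster (14.05%, 11.4 to 17.2%), and 5 of the 135 without it had one (3.70%, 1.59 to 8.38%). Identity to Rnu6 moves with the motif. At 95% identity or more, 54 of 181 genes with GCATG (29.8%) and 2 of 6 without it had a cluster, and below 95% the counts were 22 of 360 (6.11%) and 3 of 129 (2.33%). Of the 76 clusters, 46 spanned the motif, and the midpoint lay a median of 9 nt upstream of its first base. Besides Gm23815, U6 genes of this kind included Gm24144 (427 counts), Gm22682 (350), Gm24242 (341) and Gm22638 (333).

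Outside U6, the RNAs with GCATG near a cluster had high counts in a few cases. In Snord118 the motif started at position 68 and the RNA had 872 counts. In Gm22009 it started at 119, 2 nt before a cluster of 287 counts. Gm24119 held it at 140 and 161 (544 counts), Rn7sk at 308 (497 counts) and Gm25395 at 107 and 244, with 444 of its 492 counts in clusters within 50 nt.

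Host introns held 214 of the 407 clusters (52.6%, 47.7 to 57.4%), in 187 RNA genes. Protein-coding hosts accounted for 177 of these clusters, in 154 RNA genes. Another 51 clusters lay in RNAs that overlap an exon of another gene (7374 counts), and 142 (34.9%) in RNAs with no other gene on their strand, which held 50.6% of the count. Box C/D RNAs were intronic in 29 of 35 genes and H/ACA RNAs in 29 of 39, against 18 of 81 for U6. Placement was worked out only for RNAs with a cluster. These shares and the 52.6% above therefore have no share over all annotated genes beside them and are not a trait of RNAs with a cluster. Intronic box C/D RNAs ended a median of 84 nt before the next exon and H/ACA RNAs 168 nt before it.

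The clusters were much denser in these RNAs than in the rest of the same introns. RNAs with a cluster had 8.58 clusters and 1144 counts per kb, and the rest of their introns 0.0959 clusters and 2.39 counts per kb (237 clusters). The RNAs were chosen for having a cluster, so this is a description and carries no test. In Eif4a2, 4 small RNAs held 4781 counts, whereas 22 other clusters in the gene held 475, none above 66. In Kpna4, Gm22009 had 1731 counts and 31 other clusters had 740. The lincRNA gene D230017M19Rik had 7153 counts on 3 U2 genes in its introns and 1 other cluster of 16. Tex14 had 1648 counts on U1 and U3 genes and 0 other clusters, and Rpsa had 894 on 3 snoRNAs.

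For RNAs that overlap exons, the annotated small RNA and the longer transcript cannot be told apart. All but 1 of the 7 unclassified misc_RNA genes were of this kind, led by Gm27694, which lies in the nuclear lncRNA Malat1 (824 counts). Gm27533, Gm27505 and Gm28006 lay in Neat1 (48, 46 and 38 counts), the lncRNA that builds paraspeckles. Gm27927 (73 counts) lay in Xist and Gm27406 (11) in Pcbp2, while Gm28008 (27) lay in an intron of St7.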

How the data were processed

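The authors pooled 3 eiCLIP libraries and deposited 1 list of clusters, each with a whole-number count per cluster. The count is taken here as cDNA starts because its values are whole numbers from 10 upwards. Per the methods, reads were trimmed, kept at 18 nt or more, aligned to GRCm38, kept when unique and stripped of duplicates by barcode, and clusters were called with Paraclu. The submitters' processing notes name CASAVA 1.8.4, cutadapt and STAR 2.4.2a. Counts are not normalised, library depth is unknown, and the input libraries were not used here.

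Midpoints were matched to GENCODE M21 genes by strand, and 28 clusters lay on sequences outside the annotation. Genes were placed in families by symbol, otherwise by BLAST 2.17.0 (at least 80% identity over at least 60% of the shorter RNA). Sequence for the motif windows came from annotated transcripts and RefSeq promoter windows. Clusters with sequence are therefore those near annotated exons or promoters, not a random part of the list. Shares have Wilson 95% intervals (scipy 1.17.1, pandas 2.3.3, Biopython 1.88, Python 3.11.15). Assignment was tested on simulated clusters. Members and lists were chosen with earlier results of these data known. Named were the 10 genes of highest count per class (the lowest of them given as ranges), genes with GCATG near a cluster, clusters at gene ends, genes with 3 or more clusters, the leading hosts and the canonical RNAs. The box counts of unnamed snoRNAs were added after seeing the data. Alternatives changed the overlap rule, the count filter, the classes, the motif and its window, the position measure and the hosts. The sequence of U6 is not reported here.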

Additional observations from a re-analysis of the deposited data

Results flagged for a closer look

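Signal outside the strand and chromosomes described above was found in 2 places, which is what marked it for a closer look. On the strand opposite to small RNA genes, 10 clusters with 227 counts lay in 7 genes, with a median of 17.5 and a highest count of 50, and none of these genes had a cluster on its own strand. In mitochondrial tRNA genes, 6 clusters held 395 counts. No control libraries were used here to set either against.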

How the results depend on the processing

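Of 47 alternatives over 11 results, 33 stayed within the limits of the reported value. For shares the limits were the Wilson intervals. For the number of clusters they were a fixed fold range around 407, within which both 322 and 463 fell. The number of clusters was 366 to 463 under other overlap rules and 184 when limited to the top 10% of counts. The share of the count was 2.77% with any overlap, 2.91% with the mitochondrial and chromosome 17 counts out of the total, 2.39% without the highest cluster and 2.29% without RNAs that overlap exons of other genes. Major spliceosomal RNAs were 32.2% of clusters, 49.6% when weighted by count, and 0.491% of clusters when families came from symbols only, which leaves the numbered copies unclassified. Box C/D genes had a cluster in 30.7% when only sequences found once were used. The share in the first 50% of the RNA was 83.0% by the 5′ end of the cluster and 76.9% weighted by count. GCATG was in 15.2% of clusters alone, TGCATG in 14.4% and CATGC in 10.96% of the windows. Protein-coding hosts alone gave an intronic share of 43.5%. Reading midpoints as 1-based (410 clusters), leaving out exon-overlapping RNAs (356 clusters) and leaving out U6 from the motif share (22.9%) were chosen after seeing the data. No paired analysis was possible because the libraries form 1 group and were pooled, and no replicate could be left out for the same reason.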

Other observations

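Heptamers resembling the indexed adaptor, searched for in the bases after the start of each cluster, were present in 2 of the 362 small RNA clusters with sequence (0.552%, 0.152 to 1.99%) and in 674 of 25417 others (2.65%).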
